A study of Mus musculus with 6 samples.

Results

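The autophagy machinery is the set of proteins that builds the autophagosome, a double membrane that encloses cytoplasm and carries it to the lysosome. The rule that defines the genes reads their names and no measured value. They are the protein-coding genes with an *Atg* symbol followed by a digit, together with 24 further core genes such as *Becn1*, *Ulk1* and the *Map1lc3* and *Gabarap* genes. This gave 42 of the 11234 genes listed for these cells. All 24 of the further genes were listed, and 18 of the 19 annotated protein-coding *Atg* genes were. *Atg9b* was the one without a value.

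The cells were MC3T3-E1, a preosteoblast line derived from mouse skull bone and labelled as strain C57BL/6 at passage 4. After 24 h in serum-free medium, both groups received complete medium for a further 24 h, with 100 μmol/L cyanidin-3-O-glucoside (C3G, a plant anthocyanin) or without it. There were 3 RNA-seq libraries per group, numbered 1 to 3 by the labels. The labels do not say whether these came from separate cultures, so p values measure the spread between these libraries, which may be technical.

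Autophagy starts when the ULK1 kinase complex, which is held back by mTORC1 while nutrients are plentiful, activates a lipid kinase complex around Beclin 1. The lipid PI3P that this complex makes recruits the WIPI proteins, while ATG9A vesicles and ATG2 lipid transfer proteins supply the growing membrane. A ubiquitin-like conjugation system then attaches the small Atg8 proteins (LC3 and GABARAP) to the membrane, where cargo receptors dock. In osteoblasts, autophagy has been linked to mineralization and to survival under stress.

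Levels are given as FPKM, the fragments of a gene scaled to its length and to the fragments mapped in the library, as the authors deposited them. These values carry no read numbers, and library depth is unknown. In RNA from whole cultures, fewer cells with a transcript and less of it per cell cannot be told apart. The markers of the machinery, *Map1lc3b* and *Becn1*, were present in every library, at 5.02 to 12.3 FPKM and 9.06 to 16.9 FPKM. Of 8 preosteoblast markers all 8 were listed, mostly as *Col1a1*, *Col1a2* and *Sparc*. Their summed FPKM was 7516 in control replicate 1, 2309 and 2882 in the other controls and 2355 to 3314 in C3G libraries, and *Sp7* was low at 0.237 to 0.857 FPKM. Of the macrophage or osteoclast markers 2 of 7 were listed (summed FPKM 16.7 in control replicate 1 and 32.6 to 35.6 in the other libraries, nearly all *Ctsk*), and *Ptprc*, *Csf1r*, *Adgre1*, *Tyrobp* and *Acp5* were not. Of 4 chondrocyte markers *Sox9* and *Col2a1* were listed, with a summed FPKM of 211 in control replicate 1 and 87.8 to 111 in the other libraries. Of the adipocyte and skeletal muscle markers 1 of 4 and 1 of 3 were listed, and of the endothelial markers 0 of 4.

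Control replicate 1 stood apart from the other libraries. Across all genes, which are not independent replicates, its log2 values had Pearson's r of 0.886 to 0.939 with the other 5 libraries, against 0.968 to 0.992 among those 5. C3G replicate 1 departed from its group in the same direction but less far. Differences were therefore also computed from replicates 2 and 3 only.

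The machinery as a whole was expressed at about the level of an average gene. Mean FPKM over the 6 libraries had a median of 7.57 over the 42 genes and of 7.20 over all genes, and 22 of the 42 lay above the latter. The levels spanned from 0.580 FPKM in *Atg4a-ps* to 72.5 FPKM in *Gabarap*. The Atg8 family held the 3 highest genes, and *Atg10*, *Atg16l2* and *Atg4a-ps* were the 3 lowest. The summed FPKM of the 42 genes was 434 to 473 without C3G and 454 to 498 with it. These ranges overlapped, with control replicate 1 lowest and C3G replicate 1 highest.

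**Figure D1:**
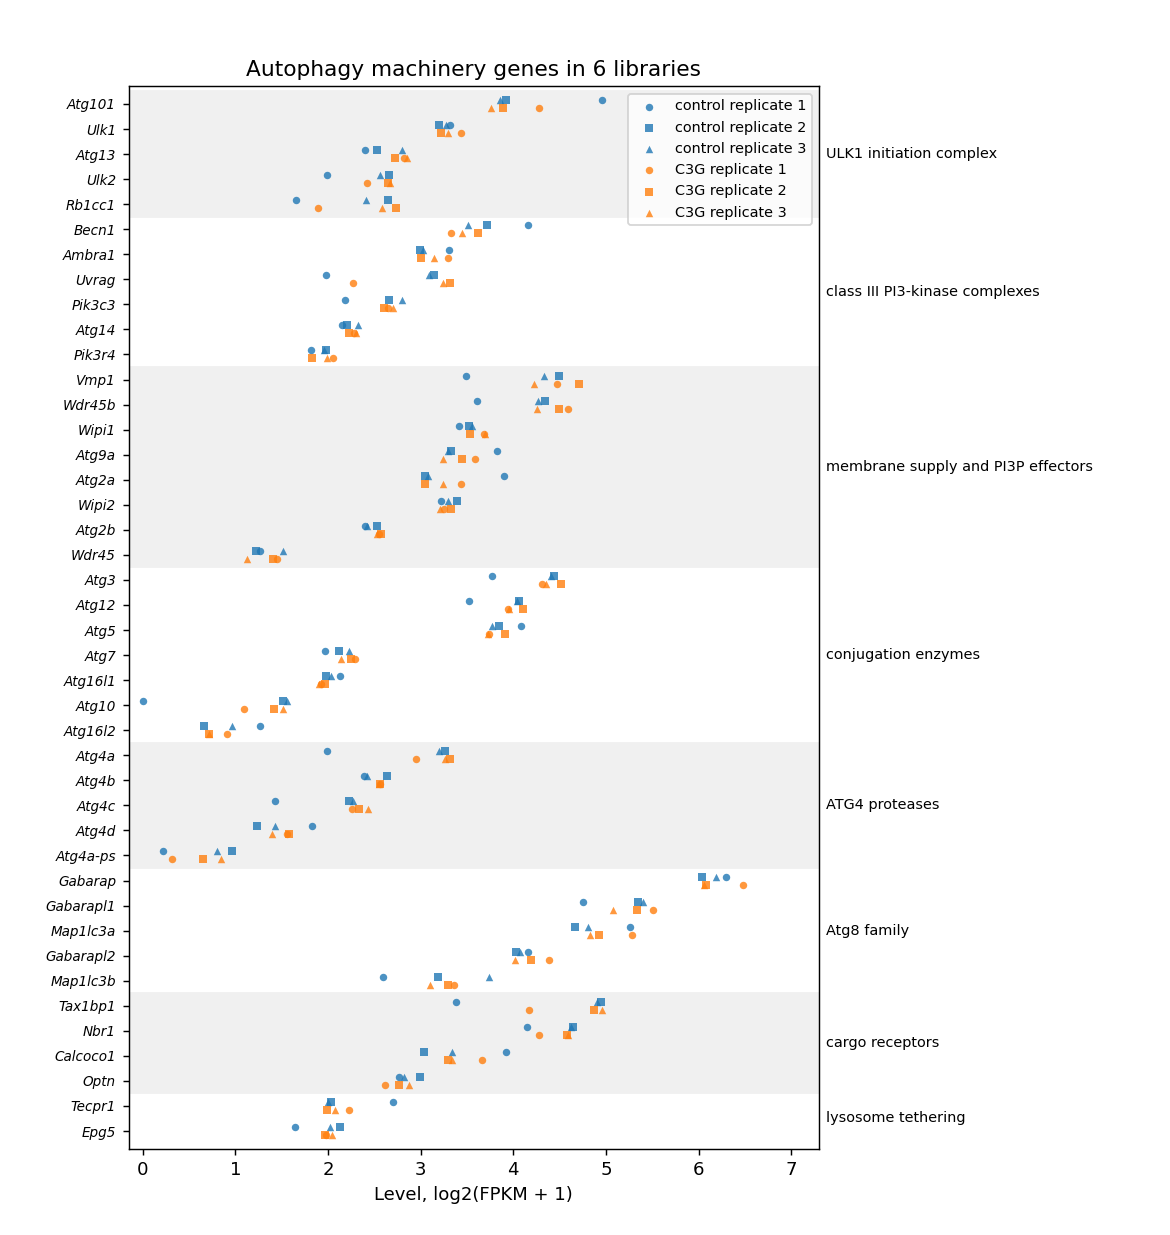
Level of the 42 autophagy machinery genes in each library, as log2(FPKM + 1) on the horizontal axis, with control libraries in blue, C3G libraries in orange and replicate numbers 1, 2 and 3 as circles, squares and triangles. The circles, above all that of control replicate 1, lie farthest from the other points in many genes, while squares and triangles of both groups lie close together.

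No gene of the machinery passed the thresholds for a difference between C3G-treated and untreated cells. With limma on log2(FPKM + 1), 0 of the 42 genes reached both thresholds, an unadjusted p under 0.05 and a change of 1.2 times or more, where 73 of all 11234 genes (0.650%) did, 0.401% with C3G higher and 0.249% with C3G lower. At an unadjusted p under 0.05 alone, 0 of the 42 passed as well (0.659% of all genes), and the smallest p was 0.157. After Benjamini-Hochberg adjustment over all genes, 0 genes of the table passed with limma, and every gene of the machinery had an adjusted p of 0.992 or above. A share of 0.650% is less than 1 gene in 42, so the absence of calls is near the background.

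Log2 fold changes on the log2(FPKM + 1) scale, which understates the changes of low genes, ran from -0.33 in *Becn1* to 0.37 in *Wdr45b*. Their median was 0.07 over the 42 genes and 0.06 over all genes. They were above 0 in 30 of the 42 genes and in 62.0% of all genes. Without control replicate 1, they were above 0 in 20 of the 42 genes and in 47.2% of all genes, and the median of the 42 turned to -0.01. With quantile normalization or with median centring of the libraries this became 21 of 42, with 49.3% and 48.3% of all genes, and the median was -0.0020 and 0.0041. With replicates 2 and 3 only, it was 23 of 42, with 45.03% of all genes, and fold changes then ran from -0.26 in *Map1lc3b* to 0.16 in *Uvrag*.

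The precision of these differences differed between the 2 sets of libraries. The median standard error of the 42 log2 fold changes was 0.199 with all 6 libraries and 0.0988 with replicates 2 and 3 only. Replicates 2 and 3 were kept because replicate 1 departed in these same data, so their smaller standard error follows in part from that choice. With all libraries, the 95% interval of the difference lay within -0.5 and 0.5 in 18 of the 42 genes and within -1 and 1 in 36. With replicates 2 and 3 only it lay within -0.5 and 0.5 in 40 and within -1 and 1 in 42. Values inside the interval of a gene were not told apart from its estimate, and no detection limit was computed.

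**Figure D2:**
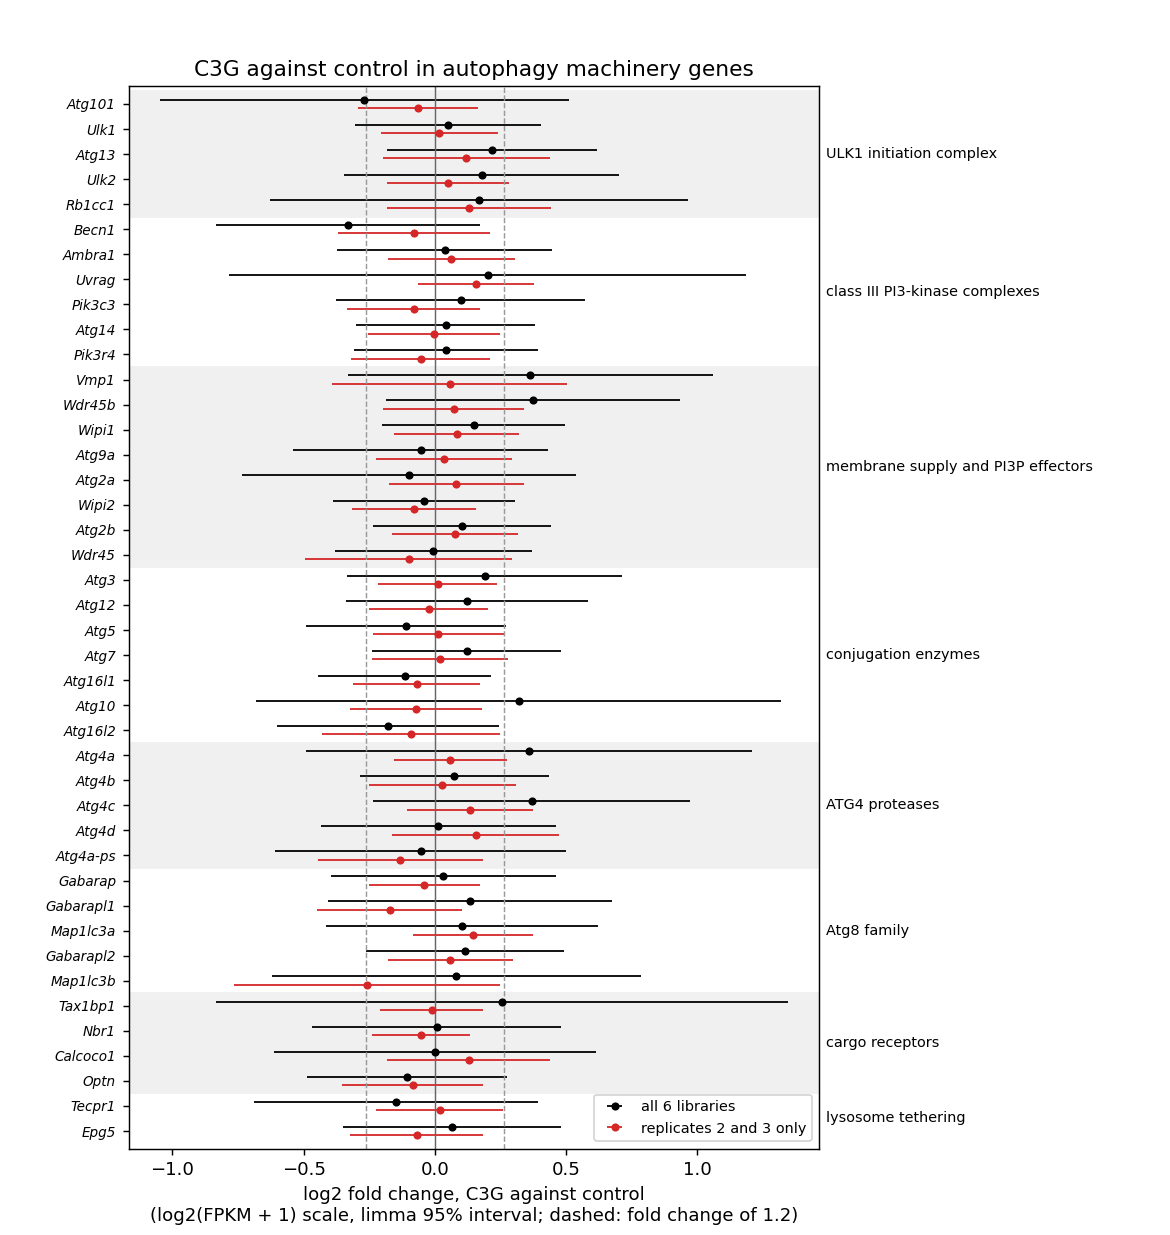
Log2 fold change of each gene with C3G against control on the log2(FPKM + 1) scale, with its 95% interval from limma, for all 6 libraries in black and for replicates 2 and 3 only in red. Every interval includes 0, dashed lines mark the fold change of 1.2, and 40 of the 42 red intervals lie within -0.5 and 0.5. The libraries of the red intervals were chosen after the departure of replicate 1 was seen.

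In 2 of the 42 genes, the control and C3G values lay apart without overlap, as they did in 4.02% of all genes. *Atg16l1* encodes the part of the conjugation complex that directs it to membranes. It had 3.38, 2.94 and 3.11 FPKM without C3G (replicates 1, 2 and 3, in this order) and 2.80, 2.93 and 2.74 FPKM with it. All C3G libraries lay below all control libraries, but the nearest values were 2.93 and 2.94 FPKM. The log2 fold change was -0.11 (standard error of the difference, SE, 0.139, p = 0.439 by limma and 0.1 by exact permutation, the smallest that 3 against 3 can give). It was -0.07 with replicates 2 and 3 only, -0.21 with quantile normalization and -0.25 with a correction of each library for transcript GC content. *Atg2b*, a lipid transfer protein, was named after its values were seen. It had 4.26, 4.76 and 4.36 FPKM without C3G and 4.85, 4.95 and 4.77 FPKM with it, with a log2 fold change of 0.10 (p = 0.497 by limma and 0.1 by exact permutation).

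Departures from the group means correlated between libraries of the same number, so the difference within each numbered pair was also read. They also correlated, less strongly, between replicates 2 and 3 of opposite groups, and the labels do not state a pairing. In 12 of the 42 genes it had the same sign in all 3 pairs, where 25.9% of all genes did. C3G was higher in all 3 pairs in 9 of them (14.2% of all genes), namely *Map1lc3a*, *Wipi1*, *Ulk1*, *Atg4a*, *Uvrag*, *Atg13*, *Atg2b*, *Rb1cc1* and *Atg4c*. It was lower in all 3 pairs in *Atg101*, *Becn1* and *Atg16l1* (11.6% of all genes). When limma was blocked on the replicate number, 0 of the 42 genes passed, where 1.5% of all genes did. With replicates 2 and 3 only, 0 of the 42 passed, where 1.70% of all genes did.

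The ULK1 initiation complex had 5 genes, with mean FPKM from 4.19 to 17.1. The highest was *Atg101*, which encodes the stabilizing partner of ATG13. *Atg101* (chromosome 15 of GRCm38, 101284272 to 101290945, plus strand) had 30.06, 14.2 and 13.5 FPKM without C3G (replicates 1, 2 and 3, in this order) and 18.5, 13.8 and 12.5 FPKM with it. Both replicate 1 libraries were the highest of their group. Its log2 fold change was -0.27 (SE 0.328, p = 0.441 by limma and 0.6 by exact permutation). Without control replicate 1 the direction turned, to 0.09, and with replicates 2 and 3 only it was -0.06. *Atg13*, the regulatory subunit that links ULK1 to FIP200, had 4.29, 4.79 and 5.97 FPKM without C3G and 6.06, 5.61 and 6.23 FPKM with it. C3G was higher in each pair, yet control replicate 3 lay inside the range of the C3G libraries. This was a difference of 0.22 on the log2 scale (SE 0.169, p = 0.237 by limma and 0.2 by exact permutation). It was 0.13 without control replicate 1 and 0.12 with replicates 2 and 3 only.

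The kinase genes *Ulk1* and *Ulk2* had mean levels of 8.81 and 4.70 FPKM. *Ulk1* was the steadier of the pair, at 8.21 to 9.82 FPKM over the 6 libraries, and its 95% interval of the log2 fold change was -0.30 to 0.40. *Ulk2* ranged from 2.98 FPKM in control replicate 1 to 5.37 FPKM in C3G replicate 3. *Rb1cc1*, which encodes the scaffold FIP200, was the lowest of the complex, with 2.14 and 2.72 FPKM in the replicate 1 libraries of control and C3G and 4.33 to 5.68 FPKM in the other 4.

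The class III PI3-kinase complexes had 6 genes, with mean FPKM from 2.84 in *Pik3r4* to 11.6 in *Becn1*. *Becn1* (ENSMUSG00000035086.13, on the minus strand of chromosome 11 at 101285952 to 101302286) encodes Beclin 1, the scaffold that BCL2 proteins bind. It had 16.9, 12.1 and 10.4 FPKM without C3G (replicates 1, 2 and 3, in this order) and 9.06, 11.3 and 9.88 FPKM with it. Both of the highest values were controls, and C3G replicate 2 lay above control replicate 3, so the groups overlapped. The mean was 13.1 ± 3.38 FPKM (SD, n = 3) without C3G and 10.1 ± 1.13 FPKM (SD, n = 3) with it. Its log2 fold change of -0.33 was the lowest of the 42 genes, with an SE of 0.211 and a 95% interval of -0.83 to 0.17 (p = 0.163 by limma and 0.2 by exact permutation). With replicates 2 and 3 only it was -0.08. The exons of *Becn1* overlap those of *Cntd1* on the opposite strand, and how the authors' counting used strand is not stated.

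*Atg14* and *Uvrag* encode the alternative partners that direct Beclin 1 to autophagosome formation and to endosomes. *Atg14* varied little, from 3.45 to 4.00 FPKM, with a 95% interval of the log2 fold change of -0.30 to 0.38. *Uvrag* had 2.94 FPKM in control replicate 1 and 3.82 FPKM in C3G replicate 1, against 7.54 to 8.96 FPKM in the other 4 libraries. The gap between replicate 1 and the other libraries was wider than that between the groups, and within each numbered pair C3G was the higher. The lipid kinase itself, *Pik3c3*, had 3.56 FPKM in control replicate 1 and 5.07 to 5.95 FPKM elsewhere. *Ambra1*, an activator of the complex, was at 6.96 to 8.92 FPKM, with both replicate 1 libraries highest in their group.

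Membrane supply and PI3P reading were represented by 8 genes, of which *Vmp1*, an endoplasmic reticulum membrane protein, and *Wdr45b*, a WIPI family protein, were the highest. *Wdr45b* (chromosome 11, 121327224 to 121354445) had 11.2, 19.3 and 18.2 FPKM without C3G and 23.1, 21.5 and 18.2 FPKM with it. Its low value in control replicate 1 was the only one outside 18.2 to 23.1 FPKM. The log2 fold change of 0.37 was the highest of the 42 genes on the log2(FPKM + 1) scale, with an SE of 0.236 and a 95% interval of -0.19 to 0.94 (p = 0.157 by limma and 0.3 by exact permutation). It was 0.07 with replicates 2 and 3 only. With a pseudocount of 0.1 in place of 1 it was 0.40, and *Atg10* was then the highest at 1.14.

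*Vmp1* (chromosome 11, 86583865 to 86683836) had 10.3, 21.5 and 19.1 FPKM without C3G and 21.2, 25.2 and 17.7 FPKM with it. Again 1 library, control replicate 1, was low and the others overlapped. Its log2 fold change was 0.36 (SE 0.293, p = 0.255 by limma and 0.5 by exact permutation), and 0.06 with replicates 2 and 3 only. The microRNA gene *Mir21a* lies in an exon of *Vmp1* on the same strand.

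The PI3P effector *Wipi1* had 9.63, 10.5 and 10.8 FPKM without C3G and 11.9, 10.6 and 12.0 FPKM with it. C3G was higher in all 3 pairs, by a log2 fold change of 0.15 with a 95% interval of -0.20 to 0.49 (p = 0.346 by limma and 0.2 by exact permutation), or 0.08 with replicates 2 and 3 only. *Wipi2*, which recruits the conjugation complex through ATG16L1, was at 8.28 to 9.53 FPKM with an interval of -0.39 to 0.30. The vesicle protein *Atg9a* and the lipid transfer protein *Atg2a* were highest in control replicate 1, at 13.1 and 13.9 FPKM, against 8.48 to 11.03 and 7.29 to 9.84 FPKM in the other libraries. The levels of *Atg9a* and *Wdr45* depend on how shared reads were divided, since 40.7% and 43.7% of the 75-base stretches of their transcripts also occur in *Gm29253* or small RNA genes and in *Gm45208*.

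The conjugation system had 7 genes whose levels differed widely. The E2-like enzyme *Atg3*, the ubiquitin-like *Atg12* and its partner *Atg5* were at mean levels of 19.0, 14.4 and 13.4 FPKM. The E1-like *Atg7*, the membrane-targeting *Atg16l1*, the E2-like *Atg10* and *Atg16l2* were at 3.502, 2.98, 1.41 and 0.850 FPKM. Thus the E2-like enzyme for the Atg8 proteins was higher per length than the E2-like enzyme for ATG12 in each of the 6 libraries. *Atg5* had 15.996, 13.4 and 12.6 FPKM without C3G and 12.3, 14.0 and 12.3 FPKM with it. The groups overlapped, and the log2 fold change was -0.11 (p = 0.521 by limma and 0.5 by exact permutation), or 0.01 with replicates 2 and 3 only and -0.25 with a correction for transcript GC content.

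*Atg10* was listed at 0 in control replicate 1 and had 1.86 and 1.95 FPKM in control replicates 2 and 3. The C3G replicates had 1.14, 1.68 and 1.86 FPKM, again with replicate 1 lowest. Its log2 fold change was 0.32 (SE 0.421, p = 0.474 by limma and 0.9 by exact permutation) and turned to -0.19 without control replicate 1. With a pseudocount of 0.1 in place of 1, which weighs the value listed at 0 more heavily, it was 1.14. *Atg16l2*, the paralogue of *Atg16l1*, had 1.40, 0.581 and 0.946 FPKM without C3G and 0.881, 0.649 and 0.645 FPKM with it, a log2 fold change of -0.18 (p = 0.354 by limma and 0.6 by exact permutation). This was -0.03 without control replicate 1, -0.09 with replicates 2 and 3 only, -0.29 with quantile normalization and -0.32 with a pseudocount of 0.1. *Atg3* and *Atg12* were lowest in control replicate 1, at 12.6 and 10.5 FPKM, against 18.9 to 21.9 and 14.3 to 16.2 FPKM in the other 5 libraries.

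The ATG4 proteases trim the Atg8 proteins before conjugation and release them afterwards. *Atg4a* and *Atg4b*, with mean levels of 7.34 and 4.76 FPKM, were the highest of the 5 genes. *Atg4c* (chromosome 4, 99193934 to 99259787) had 1.69, 3.68 and 3.83 FPKM without C3G (replicates 1, 2 and 3, in this order) and 3.80, 4.04 and 4.40 FPKM with it. C3G was higher in all 3 pairs, but C3G replicate 1 lay just under control replicate 3. The log2 fold change was 0.37 (SE 0.254, p = 0.190 by limma and 0.2 by exact permutation), and 0.13 with replicates 2 and 3 only.

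*Atg4a-ps* on chromosome 3 is a copy of the X-linked *Atg4a* that the annotation counts as protein coding. Their coding sequences are identical at 1184 of 1191 bases, and 54.2% of the 75-base stretches of the *Atg4a-ps* transcript also occur in *Atg4a*. The stretch of 60 bases below, coding bases 97 to 156 of both, is shown because it holds the most differences of any such stretch, which are the 2 bases in capitals.
Atg4a: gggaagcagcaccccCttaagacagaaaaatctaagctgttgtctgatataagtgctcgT
Atg4a-ps: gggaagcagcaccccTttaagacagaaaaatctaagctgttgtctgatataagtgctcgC
*Atg4a-ps* had 0.163, 0.952 and 0.740 FPKM without C3G and 0.250, 0.574 and 0.799 FPKM with it. This was 3.71% to 11.1% of the level of *Atg4a* in the same library, and it depends on how shared reads were divided. The log2 fold change of *Atg4a-ps* was -0.05, or -0.13 with replicates 2 and 3 only and -0.23 with the GC correction. *Atg4a* had 2.97 FPKM in control replicate 1 and 6.73 to 8.94 FPKM in the other libraries.

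The Atg8 family is the group that the conjugation system acts on. Its proteins end in a short tail that ATG4 removes to leave a glycine, and this glycine is joined to phosphatidylethanolamine in the membrane. The last 48 coding bases of the mouse genes, up to and including the stop codon, are shown from GENCODE M21 because they hold this shared site, with the last glycine codon in capitals.
Map1lc3a: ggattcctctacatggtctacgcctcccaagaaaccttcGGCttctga
Map1lc3b: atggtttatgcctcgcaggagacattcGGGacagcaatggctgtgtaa
Gabarap: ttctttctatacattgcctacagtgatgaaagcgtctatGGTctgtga
Gabarapl1: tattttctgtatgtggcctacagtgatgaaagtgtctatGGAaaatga
Gabarapl2: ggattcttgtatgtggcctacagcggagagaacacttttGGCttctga
In *Map1lc3b* 5 codons follow the glycine before the stop, and in the other 4 genes 1 codon does. Over the whole coding sequence, *Map1lc3a* and *Map1lc3b* were identical at 76.0% of aligned bases and *Gabarap* and *Gabarapl1* at 74.9%, while a *Map1lc3* and a *Gabarap* gene were identical at 51.4% to 56.1%. No 75-base stretch of *Map1lc3a*, *Gabarap* or *Gabarapl1* occurs in a transcript of another gene. In *Gabarapl2* 13.3% and in *Map1lc3b* 5.91% of such stretches do, in predicted genes such as *Gm3724* and *Gm6055*.

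*Gabarap* (chromosome 11, 69991143 to 69994951) was the highest gene of the machinery in every library. It had 77.9, 64.8 and 71.7 FPKM without C3G (replicates 1, 2 and 3, in this order) and 88.1, 66.9 and 65.7 FPKM with it. The groups overlapped, with C3G replicate 1 highest and control replicate 2 lowest. The log2 fold change was 0.03 with a 95% interval of -0.40 to 0.46 (p = 0.862 by limma and 0.8 by exact permutation), and it turned to -0.04 with replicates 2 and 3 only. *Gabarapl1* (chromosome 6, 129533160 to 129542346) followed, with 26.0, 39.8 and 41.1 FPKM without C3G and 44.4, 39.3 and 32.6 FPKM with it. Its lowest value was in control replicate 1 and its highest in C3G replicate 1, and the log2 fold change was 0.14 (p = 0.572 by limma and 0.7 by exact permutation). It turned to -0.17 with replicates 2 and 3 only.

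*Map1lc3a* (chromosome 2, 155276297 to 155278073) encodes LC3A and had 37.3, 24.4 and 26.9 FPKM without C3G and 37.8, 29.4 and 27.5 FPKM with it. C3G was higher in each of the 3 pairs, and the replicate 1 libraries were highest in both groups. The log2 fold change was 0.10 (SE 0.218, p = 0.650 by limma, 0.992 after adjustment and 0.5 by exact permutation). With a correction of each library for transcript GC content it was 0.35 and passed both thresholds (adjusted p = 0.996 by limma). *Map1lc3a* has the highest GC content of the 42 genes. Relative to the mean of control replicates 2 and 3, its control replicate 1 moved from 0.53 to -0.38 on the log2 scale under this correction. That correction called 1 of the 42 genes, where it called 1.2% of all genes, and together with the replicate block it called the same 1 gene, where it called 2.19% of all genes. The difference was 0.15, with a 95% interval of -0.08 to 0.37, with replicates 2 and 3 only. It turned to -0.03 without C3G replicate 1.

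*Map1lc3b* (ENSMUSG00000031812.16, chromosome 8, 121590361 to 121598760) encodes LC3B, the protein most often used to follow autophagosomes. It was the lowest of the family, with 5.02, 8.08 and 12.3 FPKM without C3G (replicates 1, 2 and 3, in this order) and 9.24, 8.84 and 7.60 FPKM with it. The control libraries held both the lowest and the highest value. The means were 8.48 ± 3.68 FPKM (SD, n = 3) without C3G and 8.56 ± 0.856 FPKM (SD, n = 3) with it, a log2 fold change of 0.08 with a 95% interval of -0.62 to 0.79 (p = 0.788 by limma and 0.8 by exact permutation). The direction turned with replicates 2 and 3 only, to -0.26. *Gabarapl2* (chromosome 8, 111940703 to 111953612), the gene of GATE-16, had 16.8, 15.3 and 15.8 FPKM without C3G and 19.9, 17.3 and 15.2 FPKM with it, a log2 fold change of 0.11 (p = 0.493 by limma and 0.5 by exact permutation), or 0.06 with replicates 2 and 3 only.

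In all 6 libraries the order of the family by FPKM began with *Gabarap* and ended with *Gabarapl2* and *Map1lc3b*. The ranges of *Gabarap*, of *Gabarapl2* and of *Map1lc3b* over the libraries did not overlap with those of any other family gene. *Gabarapl1* and *Map1lc3a* were not separated, since their ranges of 26.0 to 44.4 and 24.4 to 37.8 FPKM overlapped and control replicate 1 had the 2 in the opposite order to the other libraries. The *Map1lc3* genes made up 26.0%, 21.3% and 23.4% of the summed FPKM of the family without C3G and 23.6%, 23.7% and 23.6% with it. The mean shares of 23.5% ± 2.35 (SD, n = 3) and 23.6% ± 0.0343 (SD, n = 3) did not differ beyond the spread of the libraries (exact permutation p = 1). With the GC correction described for *Map1lc3a*, the share was 3.32 percentage points higher with C3G (exact permutation p = 0.3). That correction moved control replicate 1 of *Map1lc3a* from above to below the mean of the other controls.

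**Figure D3:**
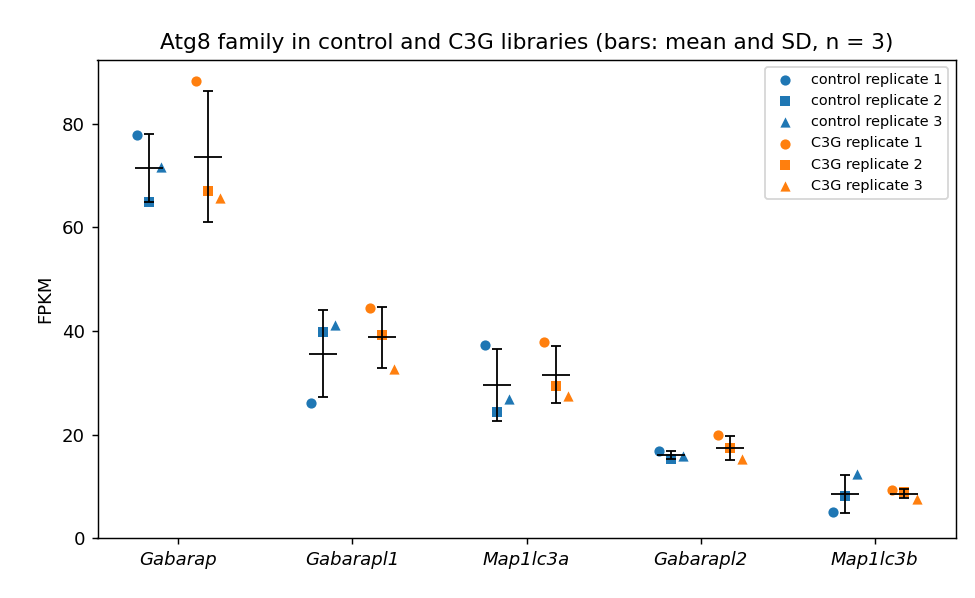
FPKM of the Atg8 family genes in each library, with control in blue, C3G in orange, symbols for the replicate number, and black bars for the mean and SD of 3 libraries. *Gabarap* lies at 64.8 to 88.1 FPKM in all libraries and *Map1lc3b* at 5.02 to 12.3 FPKM, and the groups overlap in each gene.

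The cargo receptors had 4 genes, of which *Tax1bp1*, *Nbr1* and *Optn* encode proteins that bind ubiquitin. *Tax1bp1* was the highest by mean and the most variable over the libraries, with 9.43 FPKM in control replicate 1 and 17.05 FPKM in C3G replicate 1 against 28.4 to 29.98 FPKM in the other 4. Those 4 libraries differed little, and with replicates 2 and 3 only the log2 fold change was -0.01 with a 95% interval of -0.21 to 0.18. *Nbr1* followed at 16.7 to 24.1 FPKM, with the replicate 1 libraries lowest in both groups. *Calcoco1*, a receptor for the endoplasmic reticulum and Golgi, went the other way, with 14.2 and 11.7 FPKM in the replicate 1 libraries and 7.23 to 9.11 FPKM elsewhere. *Optn*, the gene of optineurin, was at 5.11 to 6.95 FPKM with a 95% interval of its log2 fold change of -0.49 to 0.27.

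Tethering of autophagosomes to lysosomes was represented by *Epg5* and *Tecpr1*. *Epg5* (chromosome 18, 77938465 to 78035013) had 2.14, 3.37 and 3.07 FPKM without C3G and 2.95, 2.90 and 3.13 FPKM with it (log2 fold change 0.06, p = 0.721 by limma and 0.9 by exact permutation). *Tecpr1* (chromosome 5, 144194442 to 144223615) had 5.50, 3.08 and 3.01 FPKM without C3G and 3.67, 2.97 and 3.23 FPKM with it (log2 fold change -0.15, p = 0.540 by limma and 0.8 by exact permutation). Control replicate 1 was the lowest library for the first gene and the highest for the second, and the other 5 libraries overlapped in both. Both directions turned with replicates 2 and 3 only, to -0.07 and 0.02.

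The replicate 1 libraries departed from their groups in many of the genes. Control replicate 1 lay at least 1.5 times off the mean of control replicates 2 and 3, on the log2(FPKM + 1) scale, in 17 of the 42 genes, where it did in 45.8% of all genes. It was low in 13 of these genes and high in 4, and C3G replicate 1 departed in the same direction in 13 of the 17. The median departure of control replicate 1 was 0.52 in absolute log2 value, against 0.09 between control replicates 2 and 3. In C3G the corresponding values were 0.19 and 0.11. C3G replicate 1 was at least 1.5 times off in 3 of the 42 genes, where it was in 10.1% of all genes.

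The direction followed the base composition of the transcripts. The GC content of the longest transcript ran from 39.1% in *Rb1cc1* to 63.1% in *Map1lc3a*, with a median of 50.4% over the 42 genes and 49.6% over all genes. Of the 11 genes under 45% GC, control replicate 1 was below its group in 10, and of the 7 genes over 55% GC it was above its group in 7. For C3G replicate 1 these counts were 9 of 11 and 7 of 7. Across the 42 genes, which share the same libraries, Spearman's rho between GC content and the departure was 0.688 for control replicate 1 and 0.735 for C3G replicate 1, against 0.748 and 0.631 across all genes with a GC value. The genes of the machinery were thus placed within the pattern of the whole table. What RNA or library step this departure came from was not tested. After the GC correction, control replicate 1 was at least 1.5 times off in 8 of the 42 genes, against 23% of all genes. The correction was applied to this count after the data were seen. Of these 8 genes, *Gabarapl1*, *Map1lc3b* and *Uvrag* were also off before it. *Gabarapl2*, *Atg5*, *Becn1*, *Atg16l1* and *Atg16l2* were off only after it, with control replicate 1 moved farther above its group. In *Gabarapl2* the departure went from 0.11 to 0.73 on the log2 scale, and in *Atg5* from 0.28 to 0.97.

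Several genes departed otherwise than their GC content. *Becn1*, at 45.04% GC, was higher in control replicate 1 by 0.55 on the log2 scale. *Map1lc3b* and *Uvrag*, at 51.5% and 50.4% GC, were 0.87 and 1.14 lower there in absolute log2 value. In C3G replicate 1 *Uvrag* had the widest departure of the 42 genes.

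**Figure D4:**
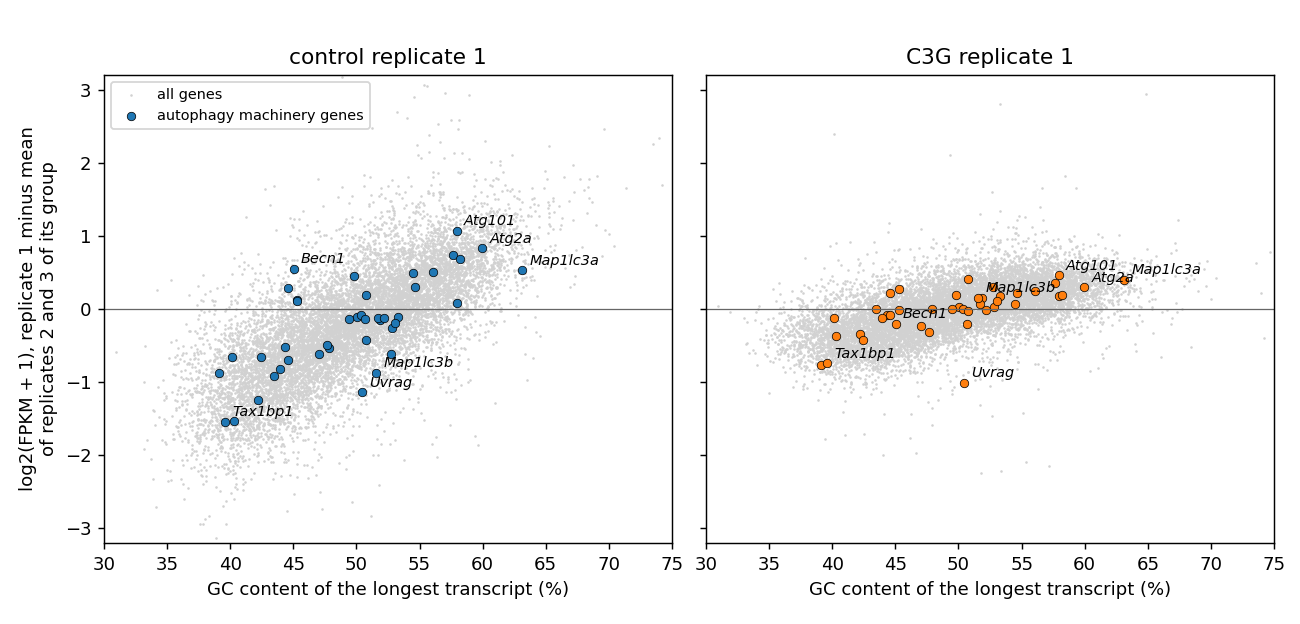
Departure of control replicate 1 (left) and C3G replicate 1 (right) from the mean of replicates 2 and 3 of its group, as a difference of log2(FPKM + 1), against the GC content of the longest transcript in percent, with all genes in grey and the 42 autophagy machinery genes in color. The genes of the machinery follow the grey cloud from low at low GC to high at high GC, more steeply in the left panel, and 18 and 5 genes of the table lie outside the axes.

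The genes around the machinery were read from a list of 94 genes, of which 90 were listed for these cells. They comprise mTORC1 and AMPK, transcription factors of autophagy and lysosome genes, further cargo receptors, regulators of Beclin 1, and the SNARE and tethering proteins of lysosome fusion. Of the 90 genes, 0 passed the limma thresholds, where 0.650% of all genes did, and 0 had an unadjusted p under 0.05. With replicates 2 and 3 only, 2 of the 90 passed, where 1.70% of all genes did. They were *Sec16a*, a gene of endoplasmic reticulum exit sites, with a log2 fold change of -0.56 against -0.23 in all libraries, and *Usp10*, a deubiquitinase gene, with -0.32 against 0.07, both named after their values were seen. With all 6 libraries the smallest p of the list was 0.166, and 62 log2 fold changes were above 0 and 28 below, where 62.0% of all genes were above 0. Their median was 0.09, against 0.06 over all genes. With quantile normalization, median centring or without control replicate 1, 53, 51 and 49 of the 90 were above 0, with medians of 0.02, 0.03 and 0.02. The control and C3G values lay apart in 5 of the 90 genes, as they did in 4.02% of all genes. These were *Stk11*, *Lamtor3*, *Vps11*, *Nrbf2* and *Rraga*, named after their values were seen.

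The adaptor gene *Sqstm1* (p62) had 89.5 ± 6.49 FPKM (SD, n = 3) without C3G and 87.8 ± 10.4 FPKM (SD, n = 3) with it, a higher level than that of *Gabarap*. *Mtor*, the kinase that restrains the ULK1 complex, had 3.28 to 3.29 FPKM without C3G and 3.17 to 3.48 FPKM with it. *Tfeb*, a transcription factor of lysosome and autophagy genes, had 6.47 and 6.08 FPKM in the replicate 1 libraries of control and C3G and 3.21 to 4.09 FPKM in the others. The SNARE gene *Stx17* had 3.13 FPKM in control replicate 1 and 6.09 to 8.14 FPKM elsewhere. Their limma p values were 0.848, 0.837, 0.837 and 0.583. As a description of the promoters, 33 of the 42 genes matched RefSeq promoters of GRCm38.p6 (250 bases before to 50 after the start). The E-box CACGTG, whose extended forms TFEB and related factors bind, was found in 4 of their 39 promoters, those of *Atg3*, *Atg5*, *Atg7* and *Atg14*, and in 7.15% of all 32851 promoters. It reads the same on both strands, and its extension TCACGTGA was found in that of *Atg3* alone and in 0.974% of all.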

How the data were processed

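RNA from 3 control and 3 C3G-treated MC3T3-E1 libraries was sequenced from a stranded kit. The authors deposited FPKM per gene, calculated with Ballgown after a FastQC check. The submitters' processing notes name cutadapt, HISAT2 2.1.0, StringTie and STAR 2.5.2b without roles and give hg19 as the build, while the identifiers are mouse Ensembl genes. These match a symbol for 11211 genes and carry the version of GENCODE M21 (GRCm38) for 9812. That annotation gave positions, GC content and sequences. The listed genes reach 0.5 FPKM on average in control or C3G. Depth is unknown.

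The log2(FPKM + 1) values of all genes were fitted with limma 3.58.1 (lmFit, eBayes with trend; R 4.3.3), using treatment alone as a term. Called genes had a two-sided p under 0.05 without adjustment and changed by 1.2 times or more. Benjamini-Hochberg adjusted p values were computed over all genes. Single values were compared with two-sided exact permutation tests, whose smallest p for 3 against 3 is 0.1. Departures of same-numbered libraries from their group means correlated (Pearson's r 0.653, 0.580 and 0.440 over genes), so the replicate number was used as a block in 1 alternative. Between replicate 2 of one group and replicate 3 of the other, r was 0.300 and 0.307. Between a replicate 1 and a library of another number it was -0.640 to -0.410. Departures within a group sum to 0, so these values are not independent and do not show that libraries were paired. The other alternatives were a pseudocount of 0.1, a mean FPKM of at least 1, eBayes without trend, quantile normalization, median centring, a GC correction (a natural spline with 5 degrees of freedom) with and without the block, each library left out in turn, and replicates 2 and 3 only. The fit was tested on simulated data. The rule that defines the members uses no values, but the choice of this gene set, the lists and the alternatives was made with earlier results of these data known. Library values are given for the markers, the Atg8 family, the 5 smallest p values among higher and among lower genes, the 3 highest and 3 lowest genes, the tethering genes and 4 other genes. Python 3.11.15 with pandas 2.3.3, numpy 2.4.6, scipy 1.17.1 and biopython 1.88 was used.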

Additional observations from a re-analysis of the deposited data

How the results depend on the processing

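In 13 of 15 alternatives 0 of the 42 genes were called. The GC correction called 1 (*Map1lc3a*), with and without the replicate block, where the block alone called 0. All genes called numbered 73, and 135 with the GC correction, 169 with the replicate block, 246 with both, 191 with replicates 2 and 3 only and 40 to 144 with each library left out. The lowest count came without C3G replicate 2 and the highest without control replicate 1. *Usp10* (without control replicate 1) and *Sec16a* (without C3G replicate 1) were the pathway genes called, both named after their values were seen, so these counts were 0 to 1, and 2 with replicates 2 and 3 only. The median log2 fold change of the 42 genes moved by less than the spread between libraries in all 15 alternatives, but it turned from 0.07 to -0.01 without control replicate 1 and to -0.0020 with quantile normalization.

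Directions turned in 15 of the 42 genes with replicates 2 and 3 only, in 18 without control replicate 1, in 9 each with quantile normalization and median centring and in 8 with the GC correction. None of the 42 was called with all 6 libraries and no correction, and the cause was not tested. Values follow for the named genes whose rule is given under the processing steps. With replicates 2 and 3 only, the log2 fold change was -0.26 for *Map1lc3b*, -0.039 for *Gabarap*, -0.17 for *Gabarapl1*, 0.013 for *Atg5*, -0.070 for *Atg10*, 0.019 for *Tecpr1*, -0.069 for *Epg5* and -0.11 for *Stx17*. Under the GC correction, in both fits, it was -0.013 for *Gabarap*, -0.017 for *Gabarapl2* and 0.19 for *Tfeb*. Quantile normalization gave -0.0054 for *Map1lc3b*, -0.040 for *Epg5* and -0.059 for *Mtor*, and median centring -0.033 for *Gabarap*, -0.00073 for *Epg5* and -0.036 for *Mtor*. Without a turn, the change widened by over 1.5 times in several genes, for example to 1.14 for *Atg10* with a pseudocount of 0.1, and with the GC correction to -0.25 for *Atg5*, -0.25 for *Atg16l1*, -0.23 for *Atg4a-ps* and 0.35 for *Map1lc3a*. In *Atg5* and *Atg16l1* the correction moved control replicate 1 farther from its group, from 0.28 to 0.97 and from 0.12 to 0.75 on the log2 scale. The GC correction narrowed the change to 0.23 for *Wdr45b*, 0.20 for *Vmp1*, 0.22 for *Atg4c*, 0.093 for *Atg10* and -0.046 for *Tecpr1*. When each library was left out in turn, the range for the named genes that turned was -0.21 to 0.37 for *Map1lc3b*, -0.030 to 0.28 for *Map1lc3a*, -0.10 to 0.11 for *Gabarap*, -0.070 to 0.25 for *Gabarapl1*, -0.46 to 0.088 for *Atg101*, -0.19 to 0.59 for *Atg10*, -0.27 to 0.099 for *Atg4a-ps*, -0.27 to 0.081 for *Tecpr1*, -0.077 to 0.16 for *Epg5*, -0.12 to 0.037 for *Sqstm1*, -0.27 to 0.16 for *Tfeb* and -0.18 to 0.39 for *Stx17*. Without a turn, the range was also wide in others, for example -0.47 to -0.15 for *Becn1*, 0.14 to 0.51 for *Wdr45b*, 0.094 to 0.52 for *Atg4c*, 0.058 to 0.56 for *Vmp1* and -0.18 to -0.015 for *Atg5*. The difference in the *Map1lc3* share with each library left out in turn was -1.07 to 1.28 percentage points, lowest without control replicate 2 and highest without control replicate 1, and 3.32 with the GC correction.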
